A study of Mus musculus with 22 samples.

Results

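The genes described here are the brakes of the cell cycle and the markers that go with lasting arrest, in the lungs of mice kept in hypoxia or normoxia and given the senolytic drug ABT-263 or its vehicle. They are the 10 rows of the deposited gene table named Cdkn1a, Cdkn1b, Cdkn1c, Cdkn2a, Cdkn2b, Cdkn2c, Cdkn2d, Rb1, Lmnb1 and Glb1, out of 54532 genes. Of the 10, 9 passed the low-count filter that left 16638 genes for testing, and Cdkn2a did not. The animals were young male C57BL6/j mice, and 22 lung samples were sequenced as mRNA, 1 library each, after 8 days. The groups were hypoxia with ABT-263 at 50 mg/kg/day (5 lungs), hypoxia with vehicle (6 lungs), normoxia with ABT-263 at that dose (6 lungs) and normoxia with vehicle (5 lungs). The last of these is taken here as the control. The oxygen level is not given in the sources used here, and all groups share the strain, sex, tissue and day.

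Cells divide when cyclin-dependent kinases (CDKs) phosphorylate the retinoblastoma protein, encoded by Rb1, and so release the E2F transcription factors that switch on S-phase genes. Inhibitors of the Ink4 family (p16, p15, p18 and p19, from Cdkn2a, Cdkn2b, Cdkn2c and Cdkn2d) bind Cdk4 and Cdk6, and those of the Cip/Kip family (p21, p27 and p57, from Cdkn1a, Cdkn1b and Cdkn1c) bind a wider range of cyclin-CDK complexes. Senescent cells hold such inhibitors high for good. They also lose lamin B1, the nuclear lamina protein encoded by Lmnb1, and gain lysosomal beta-galactosidase, encoded by Glb1, which is the enzyme behind the usual staining for senescence. ABT-263 (navitoclax) blocks the survival proteins Bcl-2 and Bcl-xL, on which senescent cells often depend.

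Library totals were 11509007 to 15744193 counts. For 3 libraries, each the first replicate of its group (hypoxia ABT-263, hypoxia vehicle, normoxia ABT-263), GEO's title gave one treatment and its tag another. Groups here follow the title. The summed level of 30 mitotic and S-phase genes stood apart in 3 drug-treated lungs. It was 690 CPM (counts scaled to the TMM-adjusted library size) in hypoxia with ABT-263, replicate 4, and 812 and 771 CPM in normoxia with ABT-263, replicates 2 and 6, against 275 to 527 CPM in the other 19. Markers of alveolar type 2 cells summed to between 37097 and 51147 CPM in every library, and those of liver, kidney, pancreas and brain to between 2.2 and 5.7 CPM. Nothing in the labels says more of the replicates than that they are separate samples, so the p-values measure the spread between these lungs. In whole tissue, fewer cells of a type and less RNA per cell cannot be told apart.

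Per length, in RPKM (CPM per kilobase of exon), Cdkn1c was the most abundant of the 10 in every group. Its RPKM was 36.9 ± 3.09 in hypoxia ABT-263 lungs, 40.3 ± 6.05 in hypoxia vehicle lungs, 34.9 ± 4.38 in normoxia ABT-263 lungs and 30.1 ± 1.59 in normoxia vehicle lungs (SD; n = 5, 6, 6 and 5). Cdkn2a was the lowest in every group, with means between 0.329 and 0.596 RPKM. Cdkn2b and Cdkn1b came below Cdkn1c at between 21.8 and 25.2 RPKM, and their means did not differ beyond their spread in any group. Cdkn2d had means of 14.1 to 17 RPKM, Glb1 7.90 to 9.26, Lmnb1 5.37 to 8.02 and Rb1 4.96 to 5.44. The order of the other genes changed little between groups, with Cdkn1a as the exception. Cdkn1a had rank 4 in hypoxia with either treatment, rank 2 in normoxia with ABT-263 and rank 5 in normoxia with vehicle. Cdkn2c had rank 6 in all 4 groups, but its mean ± SD was clear of that of Glb1, the next gene down, in both hypoxia groups and overlapped it in both normoxia groups.

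**Figure D1:**
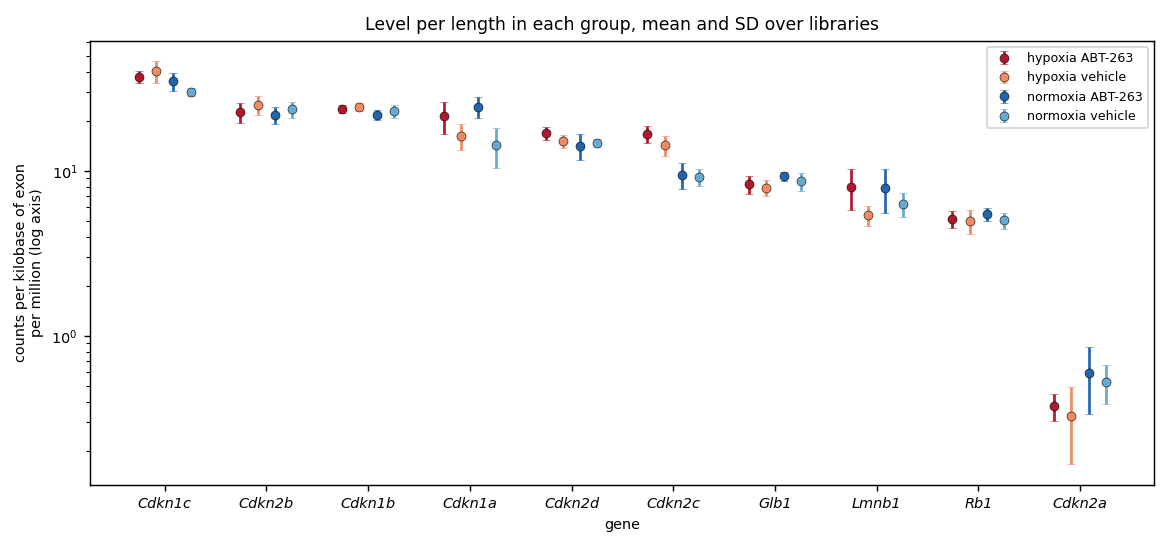
RPKM (CPM per kilobase of exon) on a log axis for the 10 genes, ordered by their mean level, with mean (points) and SD (bars) over the 5 or 6 libraries of each group. Cdkn1c is highest at 30.1 to 40.3, Cdkn2a lowest at 0.329 to 0.596, and the 2 hypoxia means of Cdkn2c (16.7 and 14.3) lie above its 2 normoxia means (9.50 and 9.18).

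Hypoxia was compared with normoxia within each treatment and averaged over both. Cdkn2c, which encodes the Cdk4 and Cdk6 inhibitor p18Ink4c, was higher in hypoxic lungs under ABT-263 and under vehicle, by 1.76-fold and 1.56-fold. Cdkn1c, the imprinted gene of the growth-restraining inhibitor p57Kip2, was 1.34-fold higher in hypoxia with vehicle. Cdkn2d, the gene of p19Ink4d, was 1.21-fold higher in hypoxia with ABT-263. None of the 9 tested genes was called lower.

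In the counts of members, 2 of 9 were called with ABT-263 and 2 of 9 with vehicle, at an adjusted p under 0.05. Over all genes tested the share called, in either direction, was 39.2% with ABT-263 (17.9% higher and 21.3% lower) and 26.3% with vehicle (13.5% higher and 12.8% lower). Averaged over treatments 2 of 9 were called, beside 49% of all genes (23% higher and 26% lower). The 9 genes were therefore called no more often than the lung transcriptome at large, and their median log2 fold change averaged over treatments was 0.08, beside -0.02 for all genes tested.

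Cdkn2c was at 50.2, 41.5, 45.8, 37.5 and 48.7 CPM in the 5 hypoxia ABT-263 lungs, against a lowest of 21.2, a median of 23.5 and a highest of 31.6 CPM in the normoxia ABT-263 lungs. With vehicle it had a lowest of 30.9, a median of 39.7 and a highest of 44.5 CPM in hypoxia, against 23.7, 22.03, 22.2, 28.4 and 26.9 CPM in the 5 normoxia lungs. Under each treatment every hypoxic lung was above every normoxic one. Groups that do not overlap were seen for 17.6% of all genes tested with ABT-263 and for 14% with vehicle. The log2 fold change was 0.81 ± 0.11 (SE) with ABT-263 (edgeR, adjusted p = 5.61e-06) and 0.64 ± 0.11 with vehicle (adjusted p = 0.000231). Averaged over treatments it was 0.72 ± 0.08 (adjusted p = 8.58e-08), and 6.27% of the genes tested had a larger change in size. The call held under every alternative tried. Without the 3 libraries of highest mitotic level, picked after the data were seen, the averaged log2 fold change was 0.84. Normoxia ABT-263 replicates 2 and 6 (31.0 and 31.6 CPM) were the highest of their group, and hypoxia ABT-263 replicate 4 (37.5 CPM) the lowest of its own. A larger change without them was therefore set in advance and is no support for the call. Among the 4 Ink4 genes, per length, Cdkn2c made up 29.4% ± 3.35 of their summed level in hypoxia ABT-263 lungs, 26.1% ± 3.95 in hypoxia vehicle lungs, 20.6% ± 3.10 in normoxia ABT-263 lungs and 19.1% ± 2.07 in normoxia vehicle lungs.

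Cdkn2c lies on chromosome 4 (GRCm38, 109660876 to 109667189, minus strand) and RefSeq lists 2 start sites for it, from which 300 bases each, 250 before and 50 after the start, are shown because Cdkn2c is the member that hypoxia moved most. Capitals mark ACGTG on either strand, 1 form of the core of the hypoxia response element. The form GCGTG was not searched. The inner start at chr4:109665323-109665622 holds 4 matches to ACGTG, 2 of them overlapping in 1 CACGTG. The outer start at chr4:109666707-109667006 holds 0 matches to ACGTG, while GCGTG can be read in its small letters. Both are written 5′ to 3′ on the minus strand, from RefSeq's GRCm38.p6. Of all 32851 promoter windows of this length, 19.6% hold ACGTG at least once, and the counts per gene do not say which start was used. Among the other members with a window, Glb1 also holds ACGTG, with 2 matches overlapping in 1 CACGTG. Glb1 was not called in hypoxia (averaged change -0.15, edgeR, adjusted p = 0.0718). The part of the motif in either level was not tested.
Cdkn2c inner start: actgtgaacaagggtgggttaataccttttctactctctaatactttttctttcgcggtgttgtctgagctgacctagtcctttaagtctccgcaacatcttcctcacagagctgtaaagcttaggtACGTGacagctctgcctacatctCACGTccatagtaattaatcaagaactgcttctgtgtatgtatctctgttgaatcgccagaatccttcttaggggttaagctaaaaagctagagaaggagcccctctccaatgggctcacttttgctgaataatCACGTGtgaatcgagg
Cdkn2c outer start: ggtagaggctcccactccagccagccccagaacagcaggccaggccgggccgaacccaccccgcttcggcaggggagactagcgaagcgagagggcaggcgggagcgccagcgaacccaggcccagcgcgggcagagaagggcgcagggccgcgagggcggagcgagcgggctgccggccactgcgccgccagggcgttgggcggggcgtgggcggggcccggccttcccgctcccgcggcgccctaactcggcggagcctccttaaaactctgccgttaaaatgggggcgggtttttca

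Cdkn1c had 68.6 CPM at the lowest, 80.2 at the median and 97.0 at the highest in hypoxia vehicle lungs, against 56.4, 65.3, 60.8, 61.8 and 62.5 CPM in the 5 normoxia vehicle lungs. These groups did not overlap. The log2 fold change was 0.42 ± 0.09 (edgeR, adjusted p = 0.00172). With ABT-263, Cdkn1c was at 74.0, 69.2, 83.5, 69.8 and 80.0 CPM in hypoxia, against 61.7 to 85.3 CPM with a median of 68.5 CPM in normoxia, and the groups overlapped. The change there was 0.08 ± 0.09 (adjusted p = 0.511). The difference between both changes, which is the interaction, was -0.34 ± 0.13 on the log2 scale with an unadjusted p of 0.0163 and an adjusted p of 0.423, so a dependence on treatment was not shown. Averaged over treatments, Cdkn1c was higher in hypoxia by 0.25 ± 0.07 (adjusted p = 0.00265). Of 12 tested imprinted growth genes, 5 rose and 5 fell in the averaged comparison with a median of 0.01. Over all genes tested 23% rose and 26% fell. Mest rose (1.17 ± 0.14), as did Grb10, which restrains growth signalling (0.44 ± 0.06). Slc22a18 and Kcnq1, the neighbours of Cdkn1c in its imprinted cluster, fell by 0.54 ± 0.09 and by 0.32 ± 0.06.

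Cdkn2d had 27.4, 27.6, 23.1, 29.6 and 26.1 CPM in hypoxia ABT-263 lungs, against a lowest of 17.9, a median of 22.4 and a highest of 26.7 CPM in normoxia ABT-263 lungs. In 3 of 5 hypoxic lungs the level was above all 6 normoxic ones, so the groups overlapped. The change was 0.27 ± 0.10 (edgeR, adjusted p = 0.0328). With vehicle it was 0.03 ± 0.10 (adjusted p = 0.854). The call with ABT-263 was lost without replicate 1, 3 or 4 of normoxia ABT-263 (adjusted p = 0.0723, 0.0715 and 0.0655) and without replicate 2 or 4 of hypoxia ABT-263 (0.0646 and 0.0691). It was also lost without the 3 libraries of conflicting labels (0.22, adjusted p = 0.114). Normoxia ABT-263 replicates 2 and 6, which had the highest mitotic levels, had 26.7 and 26.1 CPM of Cdkn2d, the highest of their group. Without them and hypoxia ABT-263 replicate 4 the change was 0.38 (edgeR, adjusted p = 0.00431). Leaving out the highest normoxic levels lowers the normoxia mean by itself, and these libraries were picked after the data were seen. The value is therefore no support for the call.

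Cdkn1a, the gene of p21 and the best known target of p53, had an averaged change near 0 between oxygen conditions. It was 0.00 ± 0.11 (edgeR, adjusted p = 0.982), with a 95% interval from -0.23 to 0.24. With ABT-263 it was -0.19 ± 0.16 (adjusted p = 0.384) and with vehicle 0.19 ± 0.16 (adjusted p = 0.414). Of 24 other p53 targets, all of them tested, 13 rose in hypoxia and 1 fell, beside 23% and 26% of all genes, with a median of 0.18 beside -0.02 for all genes. Fas, the gene of a death receptor, rose by 0.46 ± 0.07, and Bax, which encodes a pore-forming killer protein, by 0.37 ± 0.05. Eda2r, a receptor gene of the tumour necrosis factor receptor family, rose by 1.13 ± 0.17 and Phlda3, whose protein restrains Akt, by 0.35 ± 0.06. The 1 gene that fell was Btg2, an antiproliferative factor, by 0.53 ± 0.12, and it is named after its value was seen.

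Cdkn1b, the gene of p27Kip1, stayed within a narrow band. Its means were 107 ± 5.95 and 111 ± 6.45 CPM in hypoxia with ABT-263 and with vehicle, against 99.3 ± 7.24 and 104 ± 9.59 CPM in normoxia with ABT-263 and with vehicle. The averaged change of 0.10 ± 0.05 had an unadjusted p of 0.0487 and an adjusted p of 0.0890. Cdkn2b, the gene of p15Ink4b and a neighbour of Cdkn2a on chromosome 4, changed by 0.08 ± 0.08 (adjusted p = 0.400) and Rb1 by -0.05 ± 0.07 (adjusted p = 0.592). Over the 22 lungs Cdkn2b lay between 25.3 and 39.3 CPM and Rb1 between 22.5 and 37.9 CPM, with overlap between every pair of groups compared. Glb1 had means of 24.9 and 23.8 CPM in hypoxia with ABT-263 and with vehicle, against 27.9 and 26.0 CPM in normoxia with ABT-263 and with vehicle. Its averaged change was -0.15 ± 0.07 (unadjusted p = 0.0377, adjusted p = 0.0718). With single libraries left out, the adjusted p by edgeR ranged from 0.0261 to 0.159 for Glb1 and from 0.033 to 0.159 for Cdkn1b. Lmnb1 changed by -0.10 ± 0.13 (adjusted p = 0.550), with a 95% interval from -0.37 to 0.17.

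Cdkn2a, whose row holds the transcripts of both p16Ink4a and p19Arf, had 2 to 15 counts per library, so 1 count was a visible part of any value. It was at 0.433, 0.348, 0.573, 0.424 and 0.413 CPM in hypoxia ABT-263 lungs, against a lowest of 0.345, a median of 0.617 and a highest of 1.23 CPM in normoxia ABT-263 lungs. With vehicle it had a lowest of 0.132, a median of 0.431 and a highest of 0.664 CPM in hypoxia, against 0.548, 0.899, 0.500, 0.531 and 0.597 CPM in normoxia. The means were lower in hypoxia under both treatments and the groups overlapped under both. With vehicle, 5 of 6 hypoxic lungs were below all normoxic ones. The differences of -0.260 CPM with ABT-263 and -0.229 CPM with vehicle had p = 0.0693 each in a two-sided exact permutation test (adjusted over 4 comparisons p = 0.139). With single libraries left out, the vehicle difference ranged from -0.285 CPM without hypoxia vehicle replicate 1, a library of conflicting labels, to -0.158 CPM without normoxia vehicle replicate 2. It passed in the first case alone (exact permutation, adjusted p = 0.0317). It also passed without the 3 libraries of conflicting labels (-0.285 CPM, adjusted p = 0.0317) and with treatment read from their tag (-0.259 CPM, adjusted p = 0.00866), both by the exact permutation test. The ABT-263 difference ranged from -0.331 CPM without normoxia ABT-263 replicate 4 to -0.153 CPM without normoxia ABT-263 replicate 5, and passed in neither case. In an edgeR fit with no low-count filter, the averaged log2 fold change of Cdkn2a in hypoxia was -0.66 ± 0.27. Its unadjusted p there was 0.0197 and its adjusted p 0.0759, so it was not called. Of 15 Polycomb genes and other repressors of the locus, 3 rose and 6 fell in the averaged comparison with a median of 0.03. Over all genes tested 23% rose and 26% fell. Bmi1 and Rnf2, of the Polycomb repressive complex that silences Cdkn2a, rose by 0.37 ± 0.05 and 0.32 ± 0.06, and Cbx7 and Pcgf2 fell by 0.41 ± 0.07 and by 0.28 ± 0.05.

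The partners and regulators of these inhibitors were read from lists of the pathway. Averaged over treatments, 23% of all genes tested rose in hypoxia and 26% fell, with a median of -0.02. Of 14 cyclins and CDKs, 9 rose in hypoxia and 1 fell, with a median of 0.30. Cdk6, one of the kinases that p18Ink4c binds, rose by 0.48 ± 0.08, Cdk7, which activates other CDKs, by 0.49 ± 0.07, its partner Mnat1 by 0.27 ± 0.05 and the G1/S cyclin gene Ccne2 by 0.89 ± 0.19. The 1 gene that fell, named after its value was seen, was the G1 cyclin gene Ccnd1 (-0.34 ± 0.09). Of 16 RB family and E2F genes, 5 rose and 3 fell, among them Lin54 (0.48 ± 0.08) and E2f3 (0.43 ± 0.10) upwards and E2f2 (-0.41 ± 0.06) and E2f4 (-0.25 ± 0.05) downwards. Of 16 transcription factors and other activators of CDK inhibitor genes, 2 rose and 9 fell, with a median of -0.24. The 2 that rose were Klf4 (0.72 ± 0.12) and Klf6 (0.32 ± 0.06), and Foxo1 fell by 0.63 ± 0.07 and Smad3 by 0.41 ± 0.07. Genes that act in the turnover of the inhibitor proteins gave 4 higher and 1 lower of 11, led by Cops5 (0.36 ± 0.05) and Fbxo4 (0.36 ± 0.06).

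The lists beside Lmnb1 and Glb1 went in both directions, as did all genes tested (23% higher and 26% lower, averaged over treatments). Of 14 lamins and lamina partners 3 rose and 4 fell in hypoxia, with Lmna, the gene of lamins A and C, up by 0.25 ± 0.06 and Sun2, which ties the lamina to the cytoskeleton, down by 0.40 ± 0.06. Of 24 lysosomal hydrolases and partners 6 rose and 7 fell, with Lamp2 (0.23 ± 0.05) and Asah1 (0.24 ± 0.05) up and Gaa (-0.54 ± 0.07) and Arsb (-0.52 ± 0.11) down. Of 30 mitotic and S-phase genes 3 rose and 1, Mcm4, fell.

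Several cell type marker lists moved with oxygen beside these genes. Averaged over treatments, 23% of all genes tested rose in hypoxia and 26% fell. Erythroid markers rose in 8 of 10 and summed to 8916 to 15027 CPM in hypoxia ABT-263 lungs and 9379 to 13366 CPM in hypoxia vehicle lungs, against 3755 to 7030 CPM in normoxia ABT-263 lungs and 4213 to 6059 CPM in normoxia vehicle lungs. Pericyte markers rose in 7 of 8 and summed to 782 to 917 and 754 to 793 CPM in hypoxia with ABT-263 and with vehicle, against 439 to 616 and 455 to 670 CPM in normoxia with ABT-263 and with vehicle. Platelet markers fell in 8 of 9 and summed to 46.9 to 81.7 and 50.3 to 76.3 CPM in hypoxia with ABT-263 and with vehicle, against 107 to 208 and 74.3 to 140 CPM in normoxia with ABT-263 and with vehicle. Lymphocyte markers fell too, in 9 of 10 genes for B cells, 8 of 10 for T cells and 9 of 10 for NK cells, and their levels are given with the ABT-263 comparison. Neutrophil markers fell in 6 of 8 and summed to 66.8 to 144 and 120 to 251 CPM in hypoxia with ABT-263 and with vehicle, against 132 to 367 and 202 to 373 CPM in normoxia with ABT-263 and with vehicle. General capillary markers fell in 5 of 8 and rose in 2, aerocyte markers fell in 5 of 9 and rose in 1, and markers of the endothelium as a whole fell in 6 of 12 and rose in 2. General capillary sums were 1623 to 2270 and 1463 to 1857 CPM in hypoxia with ABT-263 and with vehicle, against 1678.5 to 2371 and 1779 to 2289 CPM in normoxia with ABT-263 and with vehicle, and overlapped. Club cell markers fell in 4 of 6 and rose in 1, and alveolar type 2 markers fell in 4 of 8 and rose in 1. Fibroblast markers rose in 5 of 10, and alveolar macrophage markers rose in 4 of 9 and fell in 1. Smooth muscle markers summed to 1518 to 1810 and 1615 to 2126 CPM in hypoxia with ABT-263 and with vehicle. In normoxia they summed to 1200 to 1543 and 1094 to 1479 CPM, and the oxygen groups overlapped with ABT-263 only. Klf1, an erythroid marker, and Ly6g, a neutrophil marker, both below the filter, were at 0 in 4 and 9 libraries, and no other marker of these lists was at 0 in any. The part of these cell types in the changes of Cdkn2c and Cdkn1c was not tested.

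**Figure D2:**
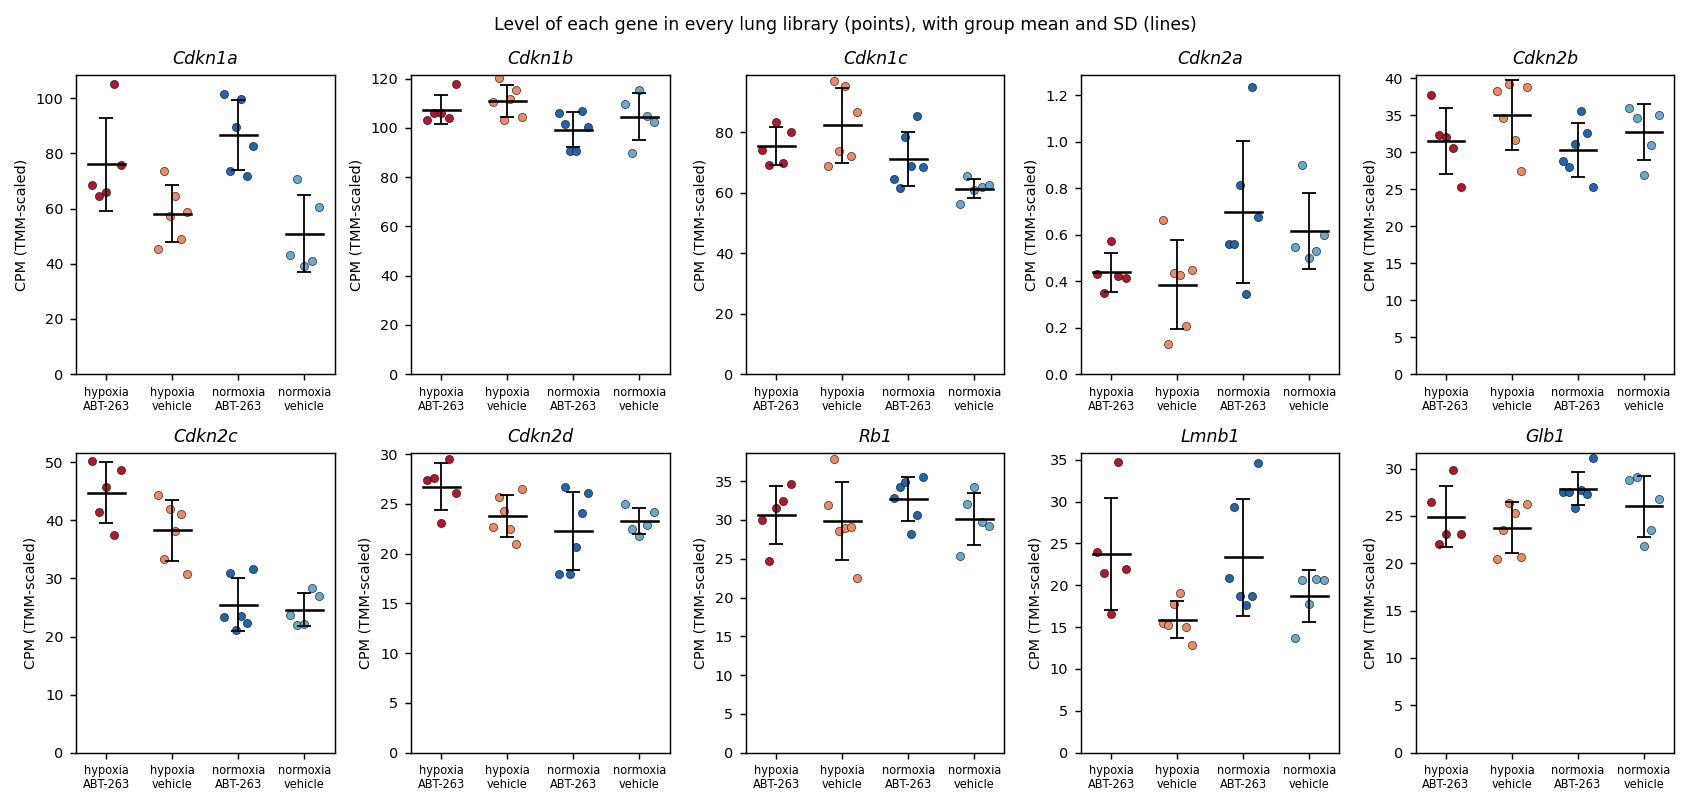
Level of each of the 10 genes in CPM (TMM-scaled) in all 22 libraries by group, with points for libraries and lines for the group mean and SD. Cdkn2c shows every hypoxic lung (30.9 to 50.2 CPM) above the normoxic lungs of the same treatment, and Cdkn1a shows every normoxia ABT-263 lung (71.6 to 101 CPM) above the normoxia vehicle lungs (39.1 to 70.6 CPM).

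ABT-263 was compared with vehicle within each oxygen condition and averaged over both. Cdkn1a was the member that edgeR called with the drug, 1.70-fold higher in normoxia with groups read from the titles. In hypoxia it was 1.31-fold higher in the fit and did not pass the test. Lmnb1, whose loss marks senescent cells, was higher with the drug in the fit, by 1.49-fold in hypoxia and 1.25-fold in normoxia, and did not pass. In normoxia its median was 19.8 CPM with ABT-263 and 20.6 CPM with vehicle, so the medians did not show that rise. The other Ink4 and Cip/Kip genes, Rb1 and Glb1 were not called in any ABT-263 comparison. In numbers, 0 of 9 were called in hypoxia (0.301% of all genes), 1 of 9 in normoxia (0.535%) and 1 of 9 averaged over oxygen (2.54%). For the count of 0 in hypoxia by edgeR, DESeq2 and limma-voom also called 0, and 2 of 9 (Cdkn1a and Lmnb1) had an unadjusted p under 0.05, beside 14.3% of all genes.

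Cdkn1a in normoxia had a lowest of 71.6, a median of 86.1 and a highest of 101 CPM with ABT-263, against 43.2, 70.6, 39.1, 40.9 and 60.4 CPM in the 5 vehicle lungs. All 6 drug-treated lungs were above all vehicle lungs, an absence of overlap seen in 2.12% of genes tested. In hypoxia it had 68.4, 64.7, 66.1, 105 and 75.7 CPM with ABT-263, against a lowest of 45.3, a median of 58.0 and a highest of 73.6 CPM with vehicle. There the groups overlapped, as they did for all but 1.98% of genes tested, with 2 of 5 drug-treated lungs above all vehicle lungs. The log2 fold change was 0.39 ± 0.16 in hypoxia (edgeR, adjusted p = 0.276) and 0.77 ± 0.16 in normoxia (adjusted p = 0.0328). The interaction was -0.38 ± 0.23 (adjusted p = 0.651), so the effect was not shown to differ between oxygen conditions. Averaged over oxygen, Cdkn1a rose by 0.58 ± 0.11 (adjusted p = 0.00997), and 2.98% of the genes tested changed more in size.

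The call in normoxia was sensitive to single libraries. It was lost when replicate 1, 3, 4 or 6 of normoxia ABT-263 (adjusted p = 0.0996, 0.0593, 0.0640 and 0.0529) or replicate 1, 3 or 4 of normoxia vehicle (0.0776, 0.118 and 0.161) was left out, with log2 fold changes from 0.68 to 0.77. The averaged call held without any single library (0.50 to 0.65, highest adjusted p = 0.0272) and without the 3 libraries of conflicting labels (0.53, adjusted p = 0.0272). With treatment read from the tag in these 3 it was 0.35 (adjusted p = 0.403). The 3 libraries had Cdkn1a at 68.4 CPM (titled hypoxia ABT-263), 45.3 CPM (titled hypoxia vehicle) and 101 CPM (titled normoxia ABT-263).

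Cdkn1a lies on chromosome 17 (GRCm38, 29090976 to 29100727, plus strand). The window around the upstream of its 2 RefSeq starts, chr17:29090729-29091028, is shown because Cdkn1a is the member that edgeR called with ABT-263. That call follows the titles and was lost with treatment read from the tag. Its capitals mark the 1 match to CATGNNNNNNCATG, the spaced cores of a p53 binding site, which begins 48 bases before the start. This motif reads the same on both strands and is in 0.712% of the 32851 windows. The window at the inner start, chr17:29093519-29093818, holds 0 matches. The sequence is RefSeq's GRCm38.p6, 5′ to 3′ on the plus strand.
Cdkn1a upstream start: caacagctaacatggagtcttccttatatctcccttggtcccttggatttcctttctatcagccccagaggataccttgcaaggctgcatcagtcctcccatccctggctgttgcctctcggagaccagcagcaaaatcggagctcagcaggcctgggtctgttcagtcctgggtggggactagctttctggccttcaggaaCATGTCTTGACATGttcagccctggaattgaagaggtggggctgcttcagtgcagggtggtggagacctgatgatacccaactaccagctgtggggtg

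The other p53 targets were read in the ABT-263 comparison too. Averaged over oxygen, 1 of 24 was called, beside 2.54% of all genes. It was Tnfrsf10b at 0.54 ± 0.11 (edgeR, adjusted p = 0.0108), and the list median was 0.05 beside 0.00 for all genes. The 4 targets that led in hypoxia were at 0.15 ± 0.07 (Fas, adjusted p = 0.217), 0.04 ± 0.05 (Bax, 0.739), 0.08 ± 0.17 (Eda2r, 0.853) and 0.04 ± 0.06 (Phlda3, 0.796). Glucocorticoids can also raise Cdkn1a, and their part in its level here was not tested. Of 15 glucocorticoid targets 4 rose and 1 fell in hypoxia, beside 23% and 26% of all genes. Their median was 0.17, and Sgk1 led (0.62 ± 0.09). Of the same 15 genes 2 rose with ABT-263, beside 1.23% of all genes. These were Map3k6 (0.51 ± 0.11) and Klf9 (0.38 ± 0.10), and the list median was 0.51. B cell markers fell in 9 of 10, NK cell markers in 9 of 10 and T cell markers in 7 of 10 with ABT-263. Over all genes tested 1.31% fell. B cell markers summed to 137 to 177 CPM with ABT-263 against 237 to 320 CPM with vehicle in hypoxia, and to 258 to 349 CPM with ABT-263 against 349 to 603 CPM with vehicle in normoxia. T cell markers summed to 54.0 to 80.0 CPM with ABT-263 against 68.2 to 79.6 CPM with vehicle in hypoxia, and to 61.1 to 90.4 CPM with ABT-263 against 90.2 to 130 CPM with vehicle in normoxia. NK cell markers summed to 39.7 to 79.6 CPM with ABT-263 against 68.0 to 123 CPM with vehicle in hypoxia, and to 69.9 to 121 CPM with ABT-263 against 124 to 186 CPM with vehicle in normoxia. The part of lymphocyte numbers in the level of Cdkn1a was not tested.

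**Figure D3:**
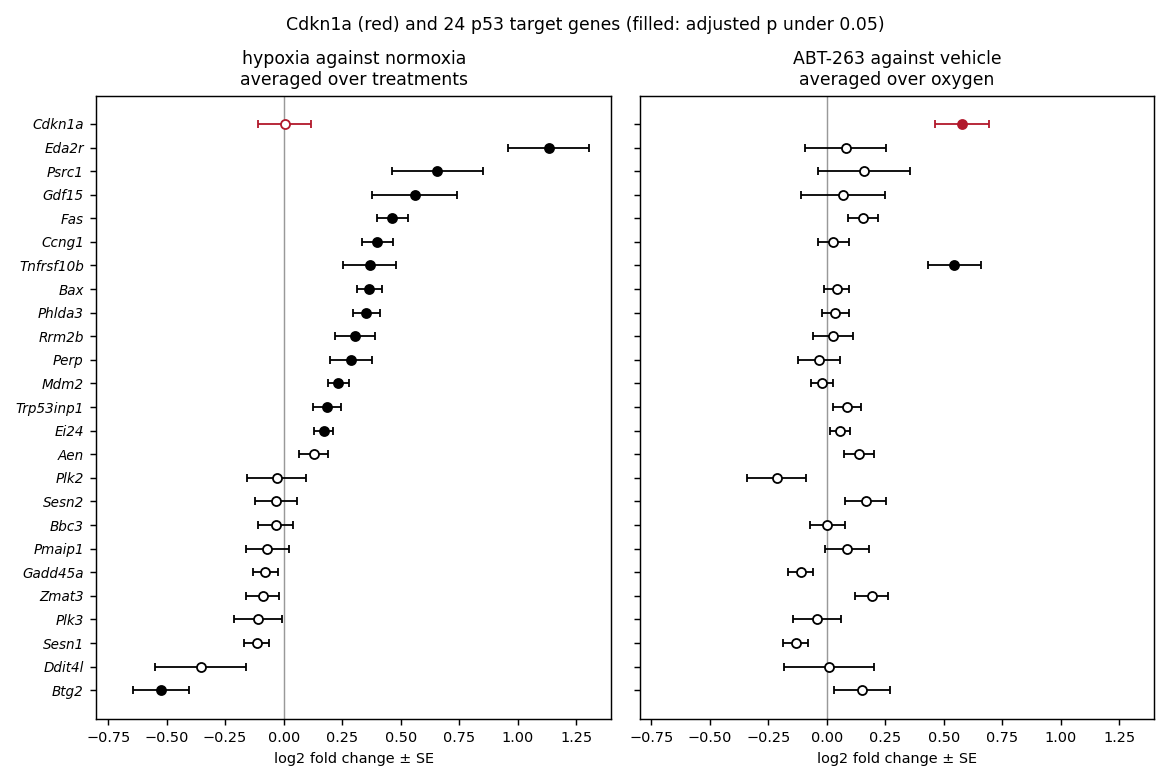
Log2 fold change with SE for Cdkn1a (top row) and 24 p53 targets, for hypoxia against normoxia averaged over treatments (left) and ABT-263 against vehicle averaged over oxygen (right), with filled points for an adjusted p under 0.05. On the left 13 targets are higher and Cdkn1a lies at 0.00, and on the right Cdkn1a (0.58) and Tnfrsf10b (0.54) are the filled points.

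Lmnb1 in hypoxia was at 23.9, 21.5, 16.6, 34.7 and 21.97 CPM with ABT-263, against a lowest of 12.8, a median of 15.4 and a highest of 19.1 CPM with vehicle. In normoxia it had a lowest of 17.7, a median of 19.8 and a highest of 34.6 CPM with ABT-263, against 13.6, 20.6, 17.7, 20.7 and 20.7 CPM with vehicle. In hypoxia 4 of 5 drug-treated lungs were above all vehicle lungs, and in normoxia 3 of 6 were. The change was 0.58 ± 0.18 in hypoxia (edgeR, adjusted p = 0.167) and 0.32 ± 0.18 in normoxia (adjusted p = 0.470). Averaged over oxygen it was 0.45 ± 0.13 (adjusted p = 0.0654), and DESeq2 called it (0.45, adjusted p = 0.0207).

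The 3 highest values of Lmnb1, 34.7, 34.6 and 29.3 CPM, came from the 3 lungs that also had the highest summed mitotic and S-phase levels. Over the other 19 libraries Pearson's r between the log2 levels was 0.62 (p = 0.00282, adjusted over the 10 genes 0.0141) and Spearman's rho 0.62 (p = 0.00560, adjusted 0.0280), both by a two-sided permutation test. Without the 2 of these 19 farthest from their median mitotic level r was 0.46 (permutation p = 0.0571, adjusted 0.285) and rho 0.48 (p = 0.0557, adjusted 0.278). Both were still positive and past no threshold at this n. Of the other 9 genes Cdkn2c also passed over the 19 libraries, with r = 0.66 (permutation p = 0.00200, adjusted 0.0141) and rho = 0.64 (p = 0.00428, adjusted 0.0280). Without the same 2 Cdkn2c had an r of 0.57 (permutation p = 0.0191, adjusted 0.191). These libraries hold all 4 groups and share their TMM scaling. The permutations took no account of group, so differences between group means enter these p-values. Over all 22 libraries, after each group's mean was subtracted, r was 0.85 for Lmnb1 and 0.54 for Cdkn2c. Without the 3 libraries of highest mitotic level the averaged change of Lmnb1 was 0.21 (edgeR, adjusted p = 0.288). They were picked after the data were seen, are all drug-treated and hold its 3 highest values. A smaller change without them was therefore set in advance and says nothing of a tie to mitotic level. Lmnb2, the gene of lamin B2, rose with ABT-263 by 0.41 ± 0.09 (adjusted p = 0.0126), the 1 gene of the 14 on the lamina list that passed. Of the 30 mitotic and S-phase genes 10 rose with ABT-263 and 0 fell, with a median of 0.84. Over all genes tested 1.23% rose and 1.31% fell. In normoxia ABT-263 lungs other than replicates 2 and 6, the summed mitotic level was 286 to 382 CPM, against 275 to 374 CPM with vehicle. In hypoxia ABT-263 lungs other than replicate 4 it was 398 to 527 CPM, against 297 to 357 CPM with vehicle. The changes that follow are over all 22 libraries. Kif11, Cdca8, Cdc45 and Cenpf rose by 1.07 ± 0.25, 1.33 ± 0.30, 0.80 ± 0.19 and 1.68 ± 0.38. The mitotic kinase gene Cdk1 rose by 1.83 ± 0.42 and its cyclin gene Ccnb1 by 1.99 ± 0.47, and these were the 2 called of 14 cyclins and CDKs. Ezh2, the Polycomb methyltransferase gene, rose by 0.42 ± 0.09 and Cbx7 fell by 0.27 ± 0.07. Of the 11 turnover genes 2 rose, Cul4a (0.15 ± 0.04) and Dtl (1.31 ± 0.35), which encode parts of ubiquitin ligases. Of the 16 RB family and E2F genes, the 16 activators and the 12 imprinted genes, 0 were called by edgeR.

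**Figure D4:**
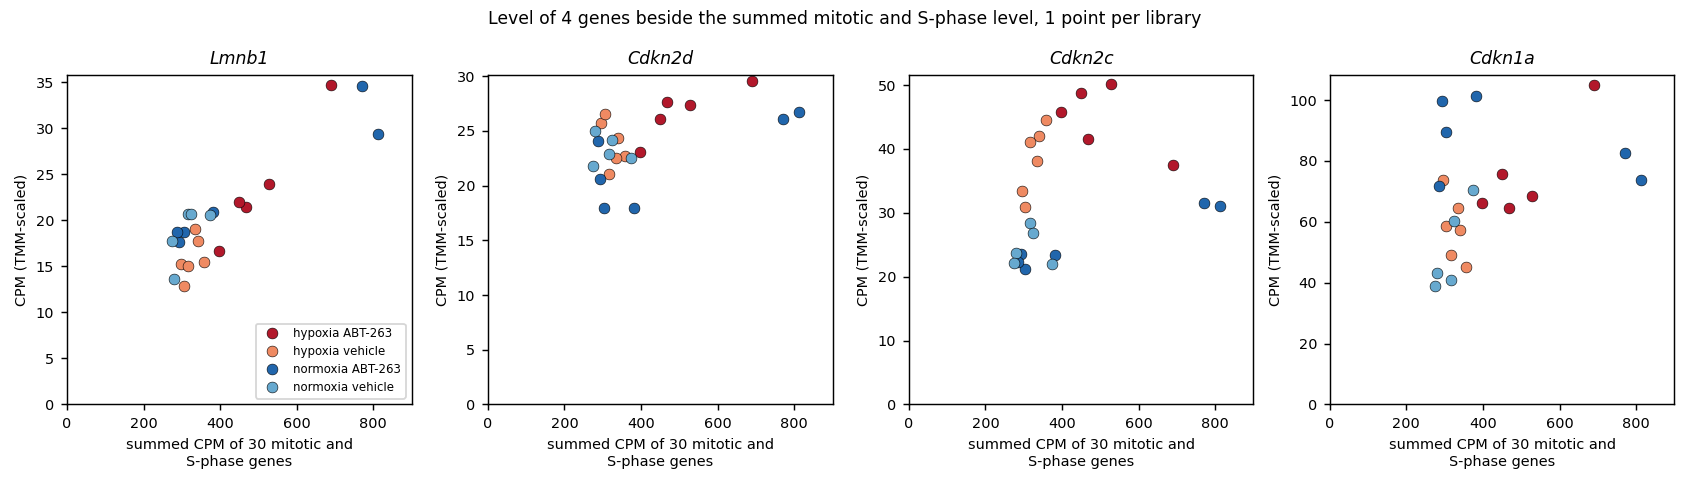
CPM of Lmnb1, Cdkn2d, Cdkn2c and Cdkn1a on the y axes beside the summed CPM of 30 mitotic and S-phase genes on the x axes, 1 point per library and colours for the 4 groups. The 3 libraries farthest right have the highest Lmnb1 (29.3 to 34.7 CPM), and Cdkn2c keeps its hypoxic lungs above the normoxic lungs of the same treatment along the whole axis.

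Glb1 and Cdkn2a, the members most used as senescence markers besides Cdkn1a, showed no called fall with the senolytic. Glb1 was at 24.9 ± 3.23 CPM with ABT-263 against 23.8 ± 2.70 CPM with vehicle in hypoxia, and at 27.9 ± 1.74 CPM with ABT-263 against 26.0 ± 3.25 CPM with vehicle in normoxia. The averaged change was 0.08 ± 0.07 (edgeR, adjusted p = 0.546), with a 95% interval from -0.05 to 0.22. Of 24 lysosomal genes 0 were called by edgeR averaged over oxygen, beside 2.54% of all genes, with a median of 0.06. Cdkn2a differed by 0.0525 CPM in hypoxia (p = 0.606) and 0.0831 CPM in normoxia (p = 0.623), both by the exact permutation test and both higher with ABT-263. Cdkn2b changed by -0.13 ± 0.08 (adjusted p = 0.379) and Cdkn2c by 0.14 ± 0.08 (adjusted p = 0.395). Cdkn1b changed by -0.06 ± 0.05 (adjusted p = 0.556), Cdkn1c by 0.04 ± 0.07 (adjusted p = 0.787), Cdkn2d by 0.05 ± 0.07 (adjusted p = 0.754) and Rb1 by 0.08 ± 0.07 (adjusted p = 0.623). Their 95% intervals lay between -0.29 and 0.30, so changes of more than about that size in either direction lay outside them.

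**Figure D5:**
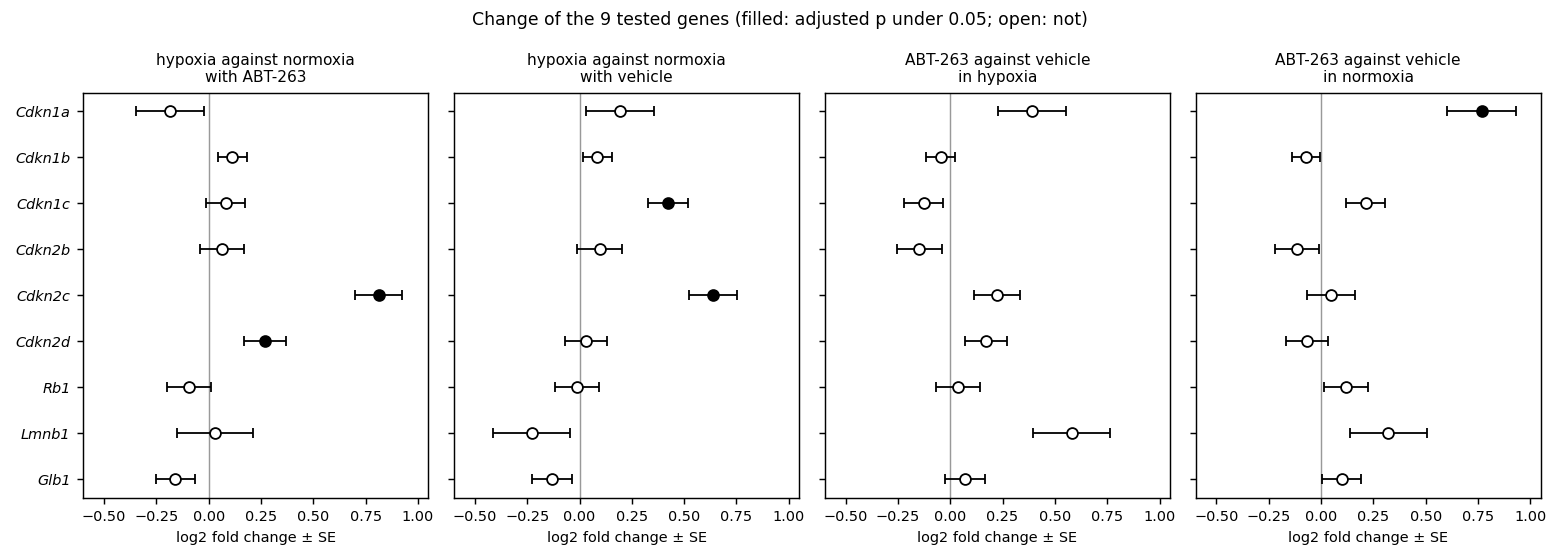
Log2 fold change with SE of the 9 tested genes in 4 comparisons, filled where the adjusted p was under 0.05. Cdkn2c is filled in both hypoxia panels (0.81 and 0.64), with Cdkn2d (0.27) in the first and Cdkn1c (0.42) in the second, and Cdkn1a is filled for ABT-263 in normoxia (0.77).

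Hypoxic lungs given ABT-263 were also set against the control lungs, normoxia with vehicle. Cdkn2c, Cdkn1a and Cdkn1c were the 3 of 9 genes called, all higher, beside 34.3% of all genes. Cdkn2c had 37.5 to 50.2 CPM in hypoxia ABT-263 lungs against 22.03 to 28.4 CPM in normoxia vehicle lungs (log2 fold change 0.86 ± 0.12, edgeR, adjusted p = 5.96e-06). Cdkn1a had 64.7 to 105 CPM in hypoxia ABT-263 lungs against 39.1 to 70.6 CPM in the controls (0.58 ± 0.17, adjusted p = 0.0112), with 2 of 5 lungs above all controls. Cdkn1c had 69.2 to 83.5 CPM in hypoxia ABT-263 lungs against 56.4 to 65.3 CPM in the controls (0.30 ± 0.10, adjusted p = 0.0211). Cdkn2c and Cdkn1c did not overlap between these groups, as was so for 20.7% of all genes. The call of Cdkn1c was lost without hypoxia ABT-263 replicate 3 (0.26, adjusted p = 0.0609). The change of Cdkn1a was smaller with treatment read from the tag, with its value given in the closing section. This comparison shares its libraries with those above and is no separate evidence. In the interaction of drug and oxygen, 0 of 9 genes and 0% of all genes were called by edgeR, while 1 of 9 (Cdkn1c) and 9.29% of all genes had an unadjusted p under 0.05. DESeq2 and limma-voom also called 0 of 9.

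Across the 22 libraries each tested member was matched with the 3 genes of most similar log2 level, by Pearson's r, as a description over libraries that share the 4 groups. For Cdkn2c these were Stard4 (r = 0.93, and 0.69 after each group's mean was subtracted), Glipr2 (0.93 and 0.73) and Klhl23 (0.93 and 0.59). For Cdkn1a they were Scyl2 (0.87 and 0.78), Cttn (0.84 and 0.77) and Ammecr1l (0.84 and 0.64). For Lmnb1 they were Topbp1 (0.93 and 0.91), Eri1 (0.89 and 0.85) and the mitotic kinesin gene Kif20a (0.88 and 0.87). For Glb1 they were Kdelr1 (0.90 and 0.86), Ctsz, the gene of the lysosomal protease cathepsin Z (0.88 and 0.85), and Bub3 (0.87 and 0.81). The other 5 had a highest r between 0.72 (Cdkn1b with Crbn) and 0.80 (Cdkn2d with Slpi).

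Some counts could hold reads of a neighbour. Rb1 shares 488 exon bases with Rcbtb2 and 408 with Lpar6, both on the other strand, and Rcbtb2 averaged 894 counts per library against 424 for Rb1. The kit marks strand, but whether the counting used it is not given in the sources used here. Glb1 shares 165 exon bases with Tmppe on its own strand, which averaged 32.6 counts against 352 for Glb1. In the annotation used (GENCODE M21, GRCm38) Cdkn1c lies on chromosome 7 from 143458339 to 143461050, Cdkn2a and Cdkn2b on chromosome 4 from 89274471 to 89294653 and from 89306299 to 89311039, all on the minus strand. Cdkn1a and Cdkn1c overlap opposite-strand gene models that averaged 4 and 0.641 counts.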

How the data were processed

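Messenger RNA of 22 mouse lung samples was sequenced with a stranded TruSeq mRNA kit on a NextSeq instrument after RNeasy Plus Mini extraction, per the labels' protocols. The deposited table holds expected counts per gene, 7.92% of them not whole, which the authors made with Trimmomatic, STAR and RSEM on GRCm38, per the submitters' processing notes. Their versions are not given in the sources used here. The counts were rounded and tested with edgeR 4.0.16 (R 4.3.3): TMM factors, filterByExpr with a minimum count of 10, a robust quasi-likelihood fit of the 4 groups, and Benjamini-Hochberg adjustment over 16638 genes with a threshold of 0.05. The procedure was tested on simulated data. Groups follow the sample titles, and the replicates of a group differed by more than sampling noise, with chi-square values per gene of 5.35 to 40.9. CPM are counts scaled to the TMM-adjusted library size. Levels per length divide CPM by the union of annotated exons in kilobases (GENCODE M21, GRCm38). Cdkn2a, below the filter, was compared in CPM with an exact permutation test over 462 arrangements of libraries (Python 3.11.15, scipy 1.17.1), and figures were drawn with matplotlib 3.10.9.

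All 10 members were named in every comparison. From each pathway list at most 4 called genes with the smallest p were named, and for each member the 3 genes with the highest Pearson r of log2 CPM (prior count 2) among tested genes of at least 2 CPM. The members and gene lists were chosen with earlier results of these data known. Promoter windows, 250 bases before to 50 after a start, came from RefSeq and matched 7 members. Alternatives were DESeq2 1.42.0, limma-voom (limma 3.58.1), library totals without TMM, other low-count filters, the compared groups only, each library left out, the 3 libraries of conflicting labels left out or read by their tag, and normoxia ABT-263 replicates 2 and 6 left out. Leaving out the 3 libraries of highest mitotic level was chosen after seeing the data.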

Additional observations from a re-analysis of the deposited data

Results flagged for a closer look

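In 4 of 44 groups of libraries tested, 1 library lay far from the others of its group, where chance gives about 1 in 20. Cdkn1a in hypoxia ABT-263 replicate 4 was at 105 CPM, with the next lung at 75.7 CPM. The same library had the third highest mitotic level of the 22. Cdkn1b in hypoxia ABT-263 replicate 5 was at 118 CPM, against 103 to 106 CPM in the other 4. Cdkn2a in normoxia vehicle replicate 2 was at 0.899 CPM, against 0.500 to 0.597 CPM in the other 4. Glb1 in normoxia ABT-263 replicate 6 was at 31.1 CPM, in a group with a median of 27.5 CPM.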

How the results depend on the processing

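No paired analysis was possible because the replicate numbers follow accession order and pair nothing. The fit of the compared groups only could not be fitted to averaged changes or the interaction. Hypoxia with ABT-263 is set against control lungs (normoxia, vehicle) where both are named together. Cdkn2c was called in hypoxia in all 3 oxygen comparisons under every alternative, and Cdkn1c with vehicle likewise. Of 69 results not called, 17 changed sign somewhere, with sizes of at most 0.138 and adjusted p of at least 0.466; no called result did. The causes of the changes below were not tested. With the compared groups only, Cdkn2d in hypoxia with ABT-263 was 0.287 (1 member called) and Cdkn1a with ABT-263 in normoxia 0.757 (0 called); with no low-count filter the second was 0.757 (0 called). Without the 3 libraries of conflicting labels the 2 values were 0.223 (1 called) and 0.704 (0 called), and Cdkn2b in hypoxia with ABT-263 was -0.00384. With the tag they were 0.161 (1 called) and 0.493 (0 called), the averaged Cdkn1a change with ABT-263 was 0.349 (0 called), that of both together against control lungs 0.268, and Cdkn1a in hypoxia averaged -0.0816. The tag also gave Lmnb1 in hypoxia with ABT-263 at -0.108, Cdkn2d with ABT-263 in normoxia at 0.045 and Glb1 with ABT-263 in hypoxia at -0.0621. The tag made the Cdkn2a difference between hypoxia and normoxia with vehicle, -0.259 CPM, a call. DESeq2 called 2 members for ABT-263 averaged over oxygen. With library totals, Cdkn1a in hypoxia averaged -0.00422, and the interactions of Cdkn2b and Glb1 were 0.00319 and 0.00312. Without normoxia ABT-263 replicates 2 and 6 together, Cdkn2b in hypoxia with ABT-263 was -0.0162, averaged hypoxia changes were -0.0314 (Cdkn1a) and 0.0462 (Lmnb1), Cdkn2c with ABT-263 in normoxia was -0.132, Cdkn2d with ABT-263 averaged -0.0226, the Glb1 interaction was 0.0223 and 1 member, Lmnb1, was called for ABT-263 in hypoxia. Without the 3 libraries of highest mitotic level these were -0.0044 for Cdkn2b, -0.105 for Cdkn1a, -0.132 for Cdkn2c and -0.0422 for Cdkn2d, with Glb1 with ABT-263 in hypoxia at -0.00123 and 4 members called in hypoxia averaged over treatments. With each library left out in turn, Cdkn1a with ABT-263 in normoxia ranged from 0.679 to 0.901 (0 to 1 members called), Cdkn2d in hypoxia with ABT-263 from 0.228 to 0.342 (1 to 2 called), and Cdkn1c with hypoxia and ABT-263 together against control lungs from 0.256 to 0.324. Members called ranged from 2 to 4 in hypoxia averaged over treatments (4 without normoxia vehicle replicate 3) and from 1 to 2 with ABT-263 averaged over oxygen (2 without normoxia ABT-263 replicate 4 or 5 or hypoxia ABT-263 replicate 3). Results not called whose sign changed ranged as follows when single libraries were left out. In hypoxia, Rb1 with vehicle ranged from -0.0915 to 0.0589, Lmnb1 with ABT-263 from -0.138 to 0.19 and Cdkn1a averaged over treatments from -0.0622 to 0.0829. With ABT-263, Cdkn2c in normoxia ranged from -0.0349 to 0.0926, Rb1 in hypoxia from -0.018 to 0.119, Glb1 in hypoxia from -0.00387 to 0.111 and the Cdkn2a difference in normoxia from -0.024 to 0.154 CPM. Interactions ranged from -0.00203 to 0.091 (Cdkn1b), -0.0943 to 0.0498 (Cdkn2b) and -0.0911 to 0.0372 (Glb1). For both together against control lungs the ranges were -0.0111 to 0.0819 (Cdkn1b), -0.119 to 0.0208 (Cdkn2b) and -0.0263 to 0.0958 (Rb1). Depth limited Cdkn2a, with 2 to 15 counts per library.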
